A study of Mus musculus with 90 samples.

Results

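Interferon-stimulated genes are the genes that cells switch on when an interferon binds its receptor. The 36 genes described here were taken by symbol from the deposited gene count tables, which list 55011 symbols, and all 36 were found. They fall into 6 roles. These are the ubiquitin-like modifier Isg15 and the protease Usp18 that removes it from proteins, 14 antiviral effectors (the Ifit, Oas, Oasl and Mx families with Rsad2, Cmpk2 and Bst2), 6 sensors and signalling genes (Irf7, Irf9, Stat2, Ifih1, Dhx58 and Zbp1), 6 interferon-inducible GTPases (Iigp1, Igtp, Irgm1, Gbp2, Gbp3 and Gbp7), 2 chemokines (Cxcl9 and Cxcl10) and 6 other genes (Ifi44, Ifi27l2a, Xaf1, Rtp4, Parp14 and Trim30a).

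The study asked how exercise, muscle injury and the mechanosensitive ion channel Piezo1 act on stromal cells of mouse muscle, and it holds 90 RNA-seq libraries in 29 groups. Stromal cells were sorted from hindlimb muscle, 1000 per library, as PDGFRa+ Sca1+ CD31- CD45- DAPI- cells. In 2 cohorts titled WT, with no Cre or Piezo1 allele named and mice aged 8 to 10 weeks, cells came from sedentary mice (SED) and either from mice on day 1 after acute exercise (AEX) or from mice after exercise training (EXT). In the genotype cohorts every mouse carried Pdgfra-Cre, which acts in PDGFRa-expressing cells, and had either wild-type Piezo1 (WT) or floxed Piezo1. Their stromal cells were sorted after no exercise, on day 1 after AEX, or on day 1 after cardiotoxin (CTX), a toxin that injures muscle fibres. Other sorted cells were cultured with Yoda1, a Piezo1 agonist, at 25 uM for 2, 4 or 6 h, or with vehicle. The vehicle libraries of the 2 h cohort are titled 0 h, and no culture time is given for the unstimulated cells of the 4 and 6 h cohort. The effects of Yoda1 and of time in culture therefore cannot be told apart. Cells of the 2 h cohort are labelled Piezo1 WT with Cre, and no genotype is given for the 4 and 6 h cohort. Whole tibialis anterior (TA) muscle was taken 1, 3 and 7 days after CTX, with the floxed group named KO in the titles. Whole hearts were taken 3 days after CTX to skeletal muscle, and uninjured hearts, livers and quadriceps came from separate cohorts of sedentary littermates. The comparison of day 3 with uninjured hearts is therefore also one of cohorts, and the effects of injury and cohort cannot be told apart. Groups held 3 libraries, except 2 at 2 h of Yoda1 and 4 in the TA day 1 and liver groups. The labels do not say which libraries are separate animals, so p-values measure the spread between these libraries, which may be partly technical.

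Library totals ran from 1806248 to 10258234 counts in 44 stromal cell libraries, from 4051973 to 10226407 in 26 skeletal muscle libraries and from 27461930 to 38376123 in 20 heart and liver libraries. Gene-level counts can include transcripts that lack a floxed exon, and their part in the Piezo1 values was not tested. Piezo1 itself did not bear out the genotype labels in every cohort. It stood between 52.0 and 54.7 CPM (counts per 1000000 counts of a library, with totals scaled within each cohort) in the floxed stromal cells after CTX and between 59.1 and 68.8 CPM in the WT cells. In the genotype and exercise cohort it stood higher in the floxed groups, at 47.5 to 78.3 CPM against 38.8 to 47.7 CPM in sedentary cells and at 57.8 to 83.6 CPM against 50.8 to 60.1 CPM after AEX. In 12 libraries of the genotype and exercise cohort the title and the library name in the table were not the same. Those libraries were placed by column name and lettered a, b and c, and replicate a of each of the 4 groups has names that point to different groups. Stromal markers (Pdgfra, Ly6a, Dcn, Col1a1, Dpt and Pi16) were read in every stromal group, while the leukocyte gene Ptprc did not exceed 0.905 CPM after CTX. Ly6a, which encodes the sort marker Sca1, is itself inducible by interferon.

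As background, type I and type III interferons signal through the kinases Jak1 and Tyk2 to a complex that holds Stat2 and Irf9 and binds the interferon-stimulated response element (ISRE) in promoters. Type II interferon, Ifng, acts on genes that carry the gamma-activated site (GAS). Irf7, Stat2 and Irf9 are themselves induced, so the system feeds forward, and Usp18 holds it back at the receptor. In muscle after injury, macrophages and other immune cells as well as stromal cells can carry these transcripts. The interferons were nearly unread here. None of 21 interferon genes passed the filter on low counts in any stromal, muscle or heart comparison. The highest count of an interferon gene in a stromal library was 13 (Ifnab, after CTX), the highest in a TA library was 4, and Ifng reached at most 4 counts in any library. In liver 1 of the 21 passed the filter (Ifnk, at most 29 counts).

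The promoters of 6 members are shown because these genes lead the comparisons that follow and differ in how their response elements are arranged. Each is the 170 bases that end at the start site, taken from RefSeq on GRCm38.p6 and written 5′ to 3′ on the gene's strand. Capitals mark the ISRE core, which was searched as GAAANNGAAA on both strands, so that it can also appear as its reverse complement, and in Igtp also the GAS core, TTCNNNGAA.
Isg15, chr4:156200819-156200988, minus strand: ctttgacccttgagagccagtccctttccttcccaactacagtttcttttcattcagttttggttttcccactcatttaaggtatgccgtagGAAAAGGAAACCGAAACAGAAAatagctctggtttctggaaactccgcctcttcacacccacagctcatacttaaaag
Ifit1, chr19:34640719-34640888, plus strand: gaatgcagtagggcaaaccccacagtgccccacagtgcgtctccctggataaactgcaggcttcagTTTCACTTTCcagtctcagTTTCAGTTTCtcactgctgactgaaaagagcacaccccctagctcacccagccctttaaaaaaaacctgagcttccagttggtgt
Ifit3, chr19:34583359-34583528, plus strand: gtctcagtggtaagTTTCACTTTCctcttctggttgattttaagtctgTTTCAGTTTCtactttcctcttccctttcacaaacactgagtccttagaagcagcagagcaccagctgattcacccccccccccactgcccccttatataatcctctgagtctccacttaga
Gbp3, chr3:142559874-142560043, plus strand: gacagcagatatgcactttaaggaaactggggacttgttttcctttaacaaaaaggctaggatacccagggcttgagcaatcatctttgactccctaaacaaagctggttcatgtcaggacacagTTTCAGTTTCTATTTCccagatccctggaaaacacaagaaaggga
Irgm1, chr11:48871421-48871590, minus strand: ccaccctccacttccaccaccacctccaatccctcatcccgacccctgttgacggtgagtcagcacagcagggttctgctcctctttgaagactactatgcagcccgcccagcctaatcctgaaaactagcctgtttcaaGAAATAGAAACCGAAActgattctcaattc
Igtp, chr11:58199386-58199555, plus strand: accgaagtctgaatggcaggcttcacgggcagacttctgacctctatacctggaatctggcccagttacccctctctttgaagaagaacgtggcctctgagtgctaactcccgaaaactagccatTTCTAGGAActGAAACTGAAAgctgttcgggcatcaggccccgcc

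The capitals of Isg15 hold 3 overlapping ISRE cores and those of Gbp3 and Irgm1 hold 2 overlapping cores each, close to the start site. Ifit1 and Ifit3 each have 2 separate cores farther upstream, and Igtp has 1 core with a GAS core just before it. A second start listed for Gbp3 had no core. Of the 36 members, 26 had a promoter in the table (250 bases before to 50 after the start). An ISRE core was found in 17 of the 26, or 65.4%, against 1079 of all 27025 genes with a promoter, or 3.99%. A GAS core was found in 5 of the 26 (19.2%) against 2582 of the 27025 (9.55%), and in Bst2 it overlapped an ISRE core. A match to these letters is a description of the window and not evidence of binding.

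Stromal cells after cardiotoxin gave the only members called by edgeR between Piezo1 genotypes. On day 1 after CTX, 13 of the 35 members tested were lower in floxed than in WT cells by edgeR's quasi-likelihood test with Benjamini-Hochberg adjustment over all genes tested, at an adjusted p under 0.05, and none was higher. Over all genes, 1.35% were called lower (175 of 12957). The median member stood 0.87 lower on the log2 scale in floxed cells, while the median of all genes was 0.01. A negative log2 fold change was found in 34 of the 35 members and in 48.8% of all genes. In 25 members every floxed library was below every WT library, but the share of all genes that separate in this way was not counted. Values here are CPM of the 3 WT libraries followed by those of the 3 floxed libraries. In bulk RNA, fewer cells carrying a transcript and less transcript per cell cannot be told apart.

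Both ubiquitin-like members were lower. Isg15 had 17.0, 16.4 and 19.6 CPM in WT and 4.96, 5.23 and 7.78 CPM in floxed cells, 2.96-fold lower (log2 -1.56, SE 0.21, adjusted p = 0.00157). Usp18 had 27.4, 16.6 and 20.1 CPM against 8.09, 7.36 and 10.6 CPM (log2 -1.31, SE 0.21, adjusted p = 0.00453). The genotypes did not overlap in either gene, and for Isg15 the highest floxed library lay well below the lowest WT library.

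Of the 6 sensors and signalling genes, 3 were lower. Irf7, the interferon regulatory factor that drives the later wave of interferon production, had 75.1, 48.6 and 58.1 CPM in WT and 29.5, 20.3 and 27.8 CPM in floxed cells, 2.34-fold lower (log2 -1.23, SE 0.17, adjusted p = 0.00303). Dhx58, which encodes the RNA helicase LGP2, had 34.0, 31.0 and 30.5 CPM against 18.6, 16.9 and 16 CPM (log2 -0.89, SE 0.13, adjusted p = 0.00303). Zbp1, a sensor of Z-form nucleic acids, had 38.6, 28.6 and 35.2 CPM against 12.5, 16.9 and 19.9 CPM (log2 -1.05, SE 0.17, adjusted p = 0.00458). No library of one genotype reached the range of the other in these 3 genes, and replicates within a genotype were closest for Dhx58.

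Of the 6 GTPases, which act on the membranes around intracellular microbes, 3 were lower. Gbp3 had the smallest adjusted p of all members, with 76.9, 59.7 and 69.2 CPM in WT and 33.9, 30.3 and 35.2 CPM in floxed cells, 2.07-fold lower (log2 -1.05, SE 0.12, adjusted p = 0.000471). Iigp1 had 84.4, 57.8 and 56.6 CPM against 29.6, 28.3 and 35.9 CPM, 2.12-fold lower (log2 -1.09, SE 0.16, adjusted p = 0.00303). Gbp7 passed narrowly at a log2 fold change of -0.83 (adjusted p = 0.0468). Its values of 26.4, 16.9 and 24.0 CPM in WT came close to the 12.2, 15.3 and 10.1 CPM of floxed cells without overlapping.

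The antiviral effectors were less uniform, with 2 of 13 tested called lower. Oas2, which makes the messenger that activates RNase L, had 14.3, 10.2 and 15.3 CPM in WT and 3.84, 4.16 and 3.78 CPM in floxed cells, 3.36-fold lower (log2 -1.75, SE 0.23, adjusted p = 0.00157). Oasl2 was called at a log2 fold change of -0.87 (adjusted p = 0.0179). Ifit1, whose protein binds viral RNA that lacks cap methylation, had 72.6, 33.4 and 51.2 CPM against 15.1, 13 and 56.0 CPM and did not pass (log2 -0.92, SE 0.72, adjusted p = 0.692). One floxed library of Ifit1 was as high as the WT libraries and the other 2 were below all of them. Ifit2 was the only member with a positive log2 fold change (0.30), and it did not pass.

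Rtp4, a regulator of the response first known as a receptor chaperone, had 42.8, 26.7 and 31.9 CPM in WT and 15.7, 13.1 and 18.1 CPM in floxed cells (log2 -1.12, SE 0.18, adjusted p = 0.00482). Ifi44 (log2 -1.91, adjusted p = 0.0327) and the T cell chemokine Cxcl9 (log2 -1.75, adjusted p = 0.0342) completed the 13. Cxcl10, which draws the same CXCR3-bearing cells, had 51.0, 41.1 and 28.6 CPM against 14.4, 11.9 and 25.1 CPM and did not pass (log2 -1.24, SE 0.31, adjusted p = 0.113), although its genotypes did not overlap.

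**Figure D1:**
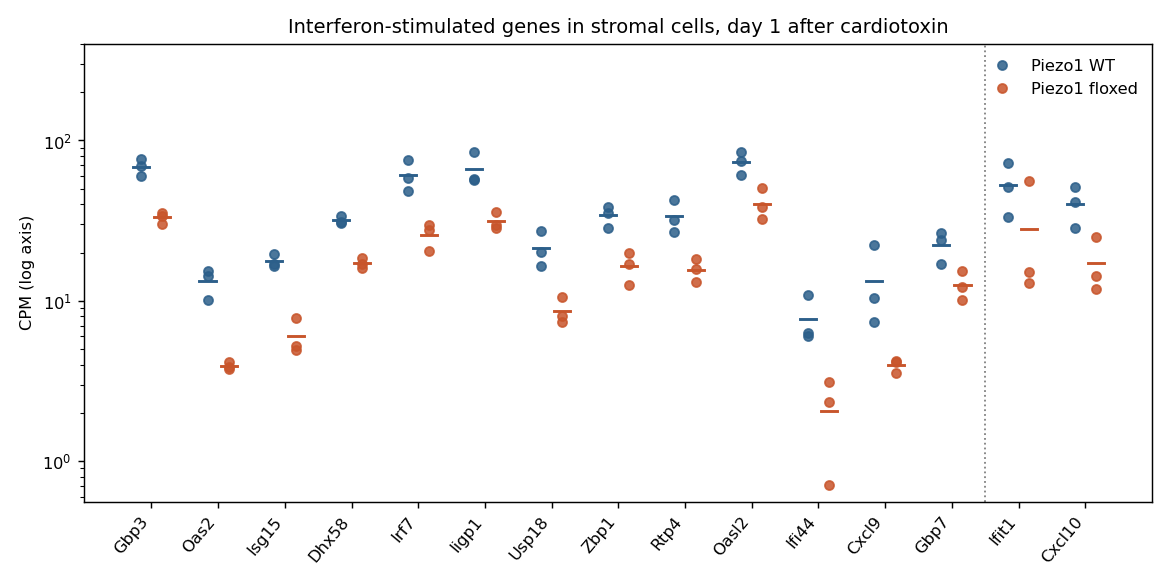
Level of the 13 called members, and after the dotted line of Ifit1 and Cxcl10, in each stromal cell library on day 1 after CTX. The y axis is CPM on a log scale, points are libraries (3 WT in blue, 3 floxed in orange) and bars are group means; the genotypes separate in all 13 and overlap in Ifit1.

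The wider interferon pathway, 96 further genes in 7 lists, gave a few lower genes. Of its 66 genes tested, 6 were lower in floxed cells and 0 higher, with a median log2 fold change of -0.22. The 6 included the secreted glycoprotein gene Lgals3bp (log2 -0.67, adjusted p = 0.00447), the MHC class I light chain B2m (log2 -0.40, adjusted p = 0.0242) and Parp9 (log2 -0.53, adjusted p = 0.0326). Markers of immune cells in the sorted cells were low. The 8 monocyte and macrophage markers summed to 12.3 to 17.4 CPM in WT and 22.9 to 25.7 CPM in floxed cells, the reverse order of the members, with Lyz2 called higher in floxed cells. Neutrophil markers summed to at most 3.24 CPM and T and NK cell markers to at most 0.667 CPM. The 6 stromal markers summed to 18531 to 20946 CPM in WT and 16799 to 18561 CPM in floxed cells, and none of them was called. The part of these markers in the result was not tested.

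Set against sedentary cells of the same genotype, which came from another cohort so that injury and cohort cannot be told apart, many members were lower after CTX and a few were higher. In WT cells 18 of 36 members were lower and 5 higher. Over all genes in that comparison 22.3% were called lower and 23.5% higher. In floxed cells 23 of 36 were lower and 3 higher, where 22.7% of all genes were called lower and 23.9% higher. The median log2 fold change of the members was -0.82 in WT and -1.21 in floxed cells, against -0.10 and -0.07 for all genes.

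Of the 6 GTPases 5 were lower in WT and 6 in floxed cells. Gbp2 had 395, 370 and 404 CPM in sedentary WT cells and 131, 97.9 and 124 CPM after CTX (log2 -1.73, adjusted p = 4.06e-07). In floxed cells Gbp2 went from 393, 616 and 553 CPM to 81.7, 89.0 and 101 CPM (log2 -2.52, adjusted p = 1.12e-08). Iigp1 had a log2 fold change of -1.56 in WT (adjusted p = 1.93e-05) and -3.28 in floxed cells (adjusted p = 1.64e-08). Stat2 (log2 -1.86 in WT and -1.97 in floxed cells), Parp14 (-2.07 and -2.83), Irgm1 (-2.20 and -3.12), Gbp7 (-1.62 and -2.48) and Igtp (-1.52 and -2.37) were lower in both genotypes. So were Mx2 (-3.04 and -3.33) and Irf9 (-1.01 and -1.72). Mx2 belongs to a family of dynamin-like antiviral GTPases, but the gene annotation lists it as a polymorphic pseudogene.

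Against that background of lower values, Bst2 (tetherin, which holds budding virus at the membrane) and Ifi44 were higher after CTX in both genotypes. Bst2 had 31.2, 59.7 and 48.7 CPM in sedentary WT cells and 161, 105 and 103 CPM after CTX (log2 1.40). In floxed cells it had 40.1, 59.3 and 44.8 CPM and then 96.0, 70.4 and 95.7 CPM (log2 0.86). The Bst2 ranges of sedentary and CTX cells did not meet in either genotype. Oas1a (log2 1.77), Oasl1 (1.55) and Zbp1 (1.43) were also higher in WT, and Oas3 (2.48) in floxed cells. Oas3 is a low gene, with 19, 10 and 19 counts in the floxed CTX libraries, and it was not called in WT (log2 -0.002).

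The remaining genes given in every cohort were mixed. Isg15 had a log2 fold change of 0.23 in WT (adjusted p = 0.624) and -1.15 in floxed cells (adjusted p = 0.018). For Irf7 the values were 0.17 (adjusted p = 0.608) and -0.90 (adjusted p = 0.00753). Rtp4, Ifit1 and Cxcl10 were lower in both genotypes, Rtp4 by log2 fold changes of -1.25 and -2.33, Ifit1 by -1.83 and -2.58 and Cxcl10 by -1.44 and -1.47. The difference between the genotypes' responses was not tested. Stromal markers were also lower after CTX, with 4 of 6 called in WT and 3 of 6 in floxed cells. Their sums went from 42439 to 51192 CPM down to 18618 to 20553 CPM in WT cells. Of 70 wider pathway genes tested, 33 were lower and 11 higher in WT and 42 lower and 6 higher in floxed cells, including Helz2 (log2 -1.74 and -1.93), Irgm2 (-2.04 and -2.62) and Irf1 (-1.83 and -2.33), which were lower in both.

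Acute exercise was measured in 2 cohorts, and few members passed the test in either. In the first, titled WT with no allele named, 0 of 33 members tested were called by edgeR and 1 by DESeq2, with 4 at an unadjusted p under 0.05, all lower after AEX. Over all genes edgeR called 0.736% in either direction, and 14.9% were at an unadjusted p under 0.05. Here and below, shares of all genes are those of edgeR with all libraries. None is given beside a count by DESeq2 or with a library left out. The median log2 fold change of the members was -0.26, and 26 of 33 were negative, against 49.5% of all genes. Ifi27l2a, of the small membrane proteins related to Ifi27, had 246, 192 and 90.2 CPM in SED and 54.9, 53.9 and 57.8 CPM after AEX (log2 -1.67, SE 0.32, adjusted p = 0.073). Oas1a had 7.65, 8.14 and 3.66 CPM against 2.48, 1.74 and 2.89 CPM (log2 -1.44, adjusted p = 0.146), and Trim30a had 39.6, 26.4 and 22.0 CPM against 19.99, 18.7 and 10.4 CPM (log2 -0.85, adjusted p = 0.201). The SED and AEX libraries did not overlap in any of these 3 genes, and the SED libraries were widely spread in Ifi27l2a.

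The other members given in every cohort overlapped between SED and AEX. Ifit1 had 55.5, 29.3 and 7.69 CPM in SED and 18.2, 45.2 and 12 CPM after AEX (log2 -0.31, adjusted p = 0.90). Iigp1 had 33.6, 24.1 and 8.6 CPM and 15.4, 29.0 and 10.4 CPM (log2 -0.29, adjusted p = 0.851). Replicate 3 was the lowest library of its group in both genes. The log2 fold changes of Isg15, Irf7 and Rtp4 were -0.19, -0.27 and -0.24 (adjusted p = 0.889, 0.796 and 0.886), and Cxcl10 did not pass the filter on low counts.

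Replicate 3 also stood apart in its sex-linked reads. In replicate 3 of SED and of AEX, Y-linked genes summed to 149 and 111 CPM and Xist stood at 0.549 and 0.16 CPM, while replicates 1 and 2 of both groups had no Y-linked reads and 311 to 384 CPM of Xist. The 36 members summed to 1515, 1298 and 802 CPM in SED and 1077, 1036 and 698 CPM after AEX. Without replicate 3 of both groups 1 member was called lower and the median was -0.31. The part of the sex of the mice in the spread of these members was not tested.

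In the genotype cohort the members leaned lower after AEX in both genotypes. In WT cells all 35 members tested had a negative log2 fold change, with a median of -0.56, while 51.2% of all genes were negative. At an unadjusted p under 0.05 were 19 members, against 12.3% of all genes. Of these members edgeR called Cmpk2, a mitochondrial nucleotide kinase gene next to Rsad2, and it called 0.405% of all genes lower. DESeq2 called 7 members, but its share of all genes is not given here. Cmpk2 had 21.2, 37.3 and 27.7 CPM in SED and 11.8, 10.1 and 11.4 CPM after AEX (log2 -1.37, SE 0.32, edgeR adjusted p = 0.0461). SED and AEX libraries did not overlap for Cmpk2, nor for 15 of the other members, and the share of all genes without overlap was not counted. The edgeR call of Cmpk2 was lost without any one of SED replicates b or c or AEX replicates a, b or c, each of which left 0 called. Without SED replicate a 6 members were called, and the share of all genes in that fit is not given here.

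In floxed cells 34 of 35 members were negative after AEX, with a median of -0.60, while 49.8% of all genes were negative. At an unadjusted p under 0.05 were 17 members, against 7.93% of all genes. EdgeR called Iigp1, and it called 0.0135% of all genes lower. DESeq2 called 2 members, but its share of all genes is not given here. Iigp1 had 208, 383 and 304 CPM in SED and 149, 115 and 108 CPM after AEX (log2 -1.27, SE 0.23, edgeR adjusted p = 0.0336). In WT cells Iigp1 had 184, 167 and 228 CPM and 99.0, 82.9 and 147 CPM (log2 -0.82, adjusted p = 0.0996). Every AEX library of Iigp1 was below every SED library in both genotypes. In floxed cells 0 members were called without SED replicate b or c or any 1 AEX replicate, and also when the 2 floxed groups were fitted alone.

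Members just short of the threshold and those given in every cohort had the same sign. Cxcl10 in WT cells had 50.2, 109 and 167 CPM in SED and 37.7, 34.7 and 47.0 CPM after AEX (log2 -1.45, adjusted p = 0.0689). Parp14 in WT cells had 58.3, 49.1 and 58.1 CPM and 32.7, 32.3 and 31.9 CPM (log2 -0.77, adjusted p = 0.0634). Irf7 in floxed cells had 37.1, 62.4 and 42.8 CPM and 22.9, 23.1 and 24.7 CPM (log2 -1.01, adjusted p = 0.178). Libraries of the 2 conditions were apart in these 3 genes, by a small margin for Cxcl10. In floxed cells Gbp2 had a log2 fold change of -0.66 (adjusted p = 0.279). The log2 fold changes of Isg15 were -0.91 in WT and -1.03 in floxed cells, those of Ifit1 -0.67 and -0.63 and those of Rtp4 -0.66 and -0.61, with adjusted p-values of 0.283 or more. Stromal marker sums were also lower after AEX, at 42751 to 51199 CPM in sedentary and 31146 to 32169 CPM in exercised WT cells, and at 36566 to 42854 and 33441 to 35513 CPM in floxed cells.

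Genotype itself gave no member called by edgeR in this cohort. In sedentary cells edgeR called 0 of 35 and DESeq2 1, with 5 at an unadjusted p under 0.05. Among all genes 0.00675% were called and 7.38% had such an unadjusted p. The smallest p-values were those of Cxcl10 (log2 -1.23, adjusted p = 0.369), Iigp1 (0.63, adjusted p = 0.489) and Oas3 (-2.76, adjusted p = 0.581). After AEX both tools called 0 of 35, with 1 at an unadjusted p under 0.05 (Irf7, log2 -0.66, adjusted p = 0.906). There 0% of all genes were called and 5.49% had such an unadjusted p. For the interaction of genotype and AEX both tools called 0 of 35, again with 0% of all genes called. At an unadjusted p under 0.05 the interaction had 0 members, against 5.96% of all genes. Its log2 values were 1.10 for Cxcl9, 0.74 for Cxcl10 and -0.49 for Irf7, with adjusted p-values of 0.864 or more.

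Exercise training gave no called member, with 0 of 34 by edgeR and by DESeq2, and 0.484% of all genes called. The 6 members at an unadjusted p under 0.05, against 12.3% of all genes, were all higher after EXT. Yet the median log2 fold change of the members was 0.04. Oasl2 had 93.8, 81.4 and 88.6 CPM in SED and 95.3, 138 and 102 CPM after EXT (log2 0.35, adjusted p = 0.30). Gbp2 had 427, 404 and 489 CPM and 463, 567 and 587 CPM (log2 0.29, adjusted p = 0.311), and Cxcl9 had 4.75, 7.27 and 10.0 CPM and 13.7, 11.1 and 10.4 CPM (log2 0.67, adjusted p = 0.353). Oasl2 and Cxcl9 did not overlap between the groups but came within a few CPM of doing so. The log2 fold changes of Isg15, Ifit1, Irf7, Iigp1, Rtp4 and Cxcl10 lay between -0.12 and 0.30, and replicate 1 of SED was the highest library for Isg15 at 22.4 CPM.

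Stromal cells cultured with Yoda1 had called members at 2, 4 and 6 h against their controls. At 2 and 4 h the share of members called in either direction, 9.09% and 3.1%, was below that of all genes. Of 13756 genes tested at 4 h, 493 were called higher and 292 lower. Yoda1 and time in culture cannot be told apart in these comparisons. At 2 h 2 of 33 members tested were higher and 1 lower than in vehicle, where 5.3% of all genes were called higher and 5.94% lower. The 2 were Ifit1 and Ifit3, both of the Ifit cluster on chromosome 19, with the promoters printed above. Ifit1 had 29.8, 35.0 and 48.7 CPM in vehicle and 119 and 126 CPM with Yoda1, 3.24-fold higher (log2 1.69, SE 0.24, adjusted p = 0.00211). Ifit3 had 9.28, 10.6 and 13 CPM and 57.1 and 35.7 CPM, 4.25-fold higher (log2 2.09, SE 0.33, adjusted p = 0.00372). Treated and vehicle libraries were far apart in both. Of the 50-base words in the Ifit3 transcript, 51.2% also occur in Ifit3b, so reads between these copies are uncertain.

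Oasl1 was lower, with 3.02, 1.83 and 9.44 CPM in vehicle and 0 counts in both Yoda1 libraries. Against a floor of 3 counts over the 2 Yoda1 libraries, 0.586 CPM, it was at least 8.13-fold lower (adjusted p = 0.0436), or at least 4.14-fold lower without vehicle replicate 3, while DESeq2 gave it no adjusted p. Isg15 had 3.88, 4.21 and 3.99 CPM and 8.02 and 5.85 CPM (log2 0.79, adjusted p = 0.457). Iigp1 had a log2 fold change of 0.59 (adjusted p = 0.163), Rtp4 of 0.66 (adjusted p = 0.245), Irf7 of -0.88 (adjusted p = 0.416) and Cxcl10 of 0.05 (adjusted p = 0.963). Vehicle and Yoda1 libraries were apart for Isg15, Iigp1 and Rtp4. Of 68 wider pathway genes 1 was higher, the immunoproteasome subunit Psmb8 (log2 1.13), and 4 were lower, Mavs (log2 -1.55), Socs3 (-0.78), Irf1 (-1.24) and Jak1 (-0.50).

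The 2 Yoda1 libraries at 2 h were shallower, with 3416913 and 1806248 counts against 4667436 to 5621061 in vehicle, and 5 and 3 members had no count in them against at most 1 in a vehicle library. Piezo1 stood at 30.8 and 22.4 CPM with Yoda1 and 94.4 to 127 CPM in vehicle. Without Yoda1 replicate 1, 4 members were called higher and 2 lower, and without Yoda1 replicate 2, 6 higher and 2 lower. Each of those fits has 1 Yoda1 library, which is assumed to vary like the vehicle libraries. The part of depth in these calls was not tested.

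By 6 h 10 of 32 members tested were lower than in unstimulated cells and 0 were higher, where 6.72% of all genes were called lower and 6.53% higher. At 4 h 1 of 32 was lower (Irgm1), where 2.12% were. The 4 and 6 h groups share the unstimulated libraries, so their comparisons are not independent. Of the 10, 5 were among the 6 GTPases. Values are CPM of the 3 unstimulated, 3 4 h and 3 6 h libraries in turn. Iigp1 had 16.3, 6.26 and 11.6 CPM, then 10.0, 11 and 9.01 CPM, then 2.71, 6.49 and 4.48 CPM (6 h log2 -1.32, SE 0.31, adjusted p = 0.00313). Gbp2 had 41.9, 39.7 and 37.5 CPM, then 40.6, 38.5 and 38.9 CPM, then 24.0, 27.8 and 27.0 CPM (log2 -0.60, adjusted p = 0.00112). Gbp2 was level to 4 h and separated at 6 h, while for Iigp1 the lowest unstimulated library lay inside the 6 h range.

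Irgm1 had 44.0, 34.5 and 36.4 CPM, then 26.8, 18.2 and 27.4 CPM, then 22.9, 25.4 and 28.1 CPM (4 h log2 -0.66, SE 0.15, adjusted p = 0.00652, and 6 h log2 -0.59, adjusted p = 0.00742). It was the only member already lower at 4 h, and that call was lost without unstimulated replicate 1 or 4 h replicate 2. Gbp7 (log2 -0.60, adjusted p = 0.0311) and Gbp3 (log2 -0.53, adjusted p = 0.041) were also lower at 6 h.

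Outside the GTPases, Usp18 had 5.43, 5.74 and 5.59 CPM, then 7.14, 5.76 and 4.22 CPM, then 1.62, 1.62 and 1.79 CPM, 3.30-fold lower at 6 h (log2 -1.72, SE 0.37, adjusted p = 0.00101). Ifi27l2a had 66.2, 74.9 and 69.2 CPM, then 61.1, 64.5 and 63.3 CPM, then 49.6, 48.3 and 46.9 CPM (log2 -0.54, SE 0.10, adjusted p = 0.000162). Both had a 6 h range below all other libraries, and the 4 h libraries of Usp18 were the most spread. Oasl2 (log2 -0.86, adjusted p = 0.00801), Stat2 (log2 -0.54, adjusted p = 0.0161) and Parp14 (log2 -0.76, adjusted p = 0.04) made up the 10. Without 6 h replicate 1, 5 members were called.

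Ifit1 had 11.3, 12 and 10.5 CPM, then 9.47, 8.36 and 5.18 CPM, then 5.59, 9.53 and 9.85 CPM, and was not called (6 h log2 -0.44, adjusted p = 0.298). Rtp4 was not called at 6 h (log2 -0.28, adjusted p = 0.577), and Isg15, with 0.603 to 3.16 CPM in all 9 libraries, did not pass the filter on low counts. At 4 h the next smallest p-values were those of Irf9 (log2 -0.38, adjusted p = 0.172) and Trim30a (log2 0.86, adjusted p = 0.182).

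Directly between 4 and 6 h, 8 of 32 members were lower at 6 h and 0 higher, where 5.7% of all genes were called lower and 5.25% higher. They were Usp18 (log2 -1.76, adjusted p = 0.00124), Gbp2 (-0.58, adjusted p = 0.00235), Ifi27l2a (-0.38, adjusted p = 0.0113), Iigp1 (-1.14, adjusted p = 0.0164), Oasl2 (-0.78, adjusted p = 0.0233), Irf7 (-1.11, adjusted p = 0.0251), Trim30a (-1.24, adjusted p = 0.0304) and Cxcl10 (-0.78, adjusted p = 0.0446). Cxcl10 had 8.14, 9 and 10.0 CPM unstimulated, 13.9, 9.66 and 16.7 CPM at 4 h and 5.95, 11.2 and 6.45 CPM at 6 h. Its 4 and 6 h ranges overlapped, and its values against unstimulated cells were not called (4 h log2 0.56, adjusted p = 0.204, and 6 h log2 -0.22, adjusted p = 0.676). The count was 5 without 4 h replicate 1 and 3 without 6 h replicate 3.

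**Figure D2:**
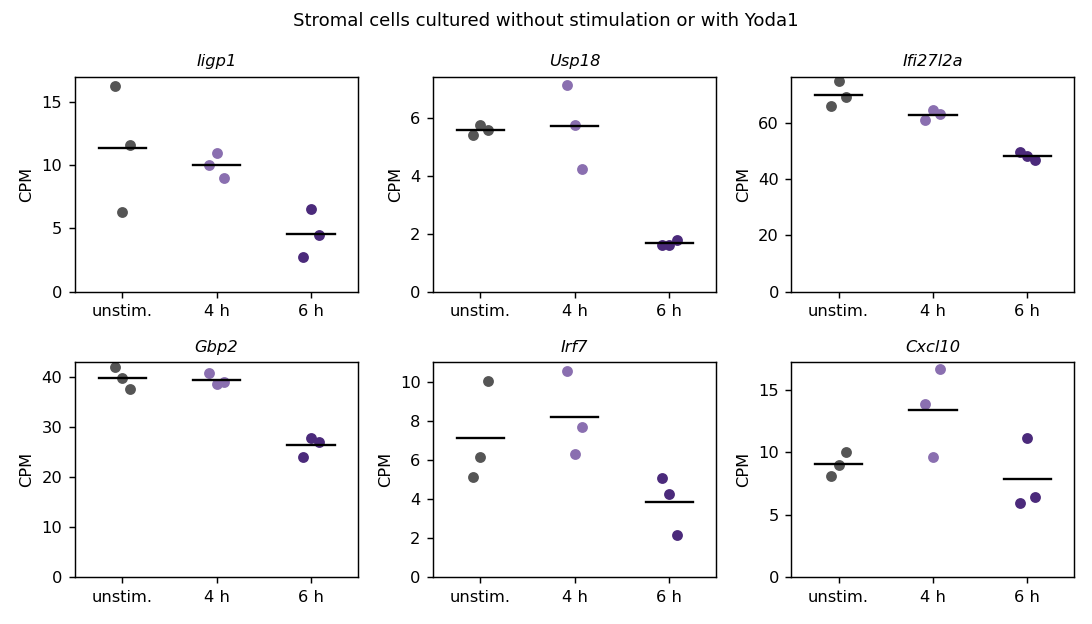
CPM of Iigp1, Usp18, Ifi27l2a, Gbp2, Irf7 and Cxcl10 in each cultured stromal cell library, unstimulated and after 4 or 6 h of Yoda1. Points are libraries (3 per time) and lines are group means; Usp18, Ifi27l2a and Gbp2 were lowest in all 3 6 h libraries, while Cxcl10 was highest on average at 4 h.

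The members summed to 482 to 511 CPM unstimulated, 426 to 504 CPM at 4 h and 345 to 372 CPM at 6 h. Of 64 wider pathway genes tested at 6 h, 17 were lower and 1 higher (Cgas), with a median of -0.24. The feedback inhibitor Socs3 (log2 -0.54), the entry restriction factor Ifitm3 (-0.40), Lgals9 (-0.59) and Irf1 (-0.80) had the smallest p-values, and 3 genes, Myd88 (-0.44), Ifngr2 (-0.34) and Mavs (-0.42), were lower at 4 h. Stromal markers were lower too, with 5 of 6 called at 6 h and sums of 48876 to 54304 CPM unstimulated and 37142 to 39034 CPM at 6 h. Ly6a had 495, 498 and 532 CPM unstimulated and 380, 392 and 385 CPM at 6 h. The part of this wider shift in the members' values was not tested.

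In injured TA muscle members were called between days and not between genotypes. From day 1 to day 3 after CTX 8 of 36 members rose in WT muscle and 0 fell, where 14.1% of all genes rose and 12.6% fell. In floxed muscle 31 of 36 rose and 0 fell, where 22% rose and 22.6% fell. From day 3 to day 7 29 of 36 fell in WT, where 22.4% of all genes fell and 20.1% rose, and 30 of 36 fell in floxed muscle, where 27% fell and 25.8% rose. The median log2 changes were 0.47 and then -1.21 in WT, and 1.15 and then -1.53 in floxed muscle. Neighbouring steps share the day 3 libraries, so a high day 3 enters both.

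The WT rise was led by Ifi44, which had 6.72, 6.26, 3.02 and 3.42 CPM on day 1 and 11, 19.2 and 12.6 CPM on day 3 (log2 1.55, adjusted p = 0.00171). Ifit2 had 32.5, 47.7, 20.5 and 19.8 CPM and 70.1, 97.7 and 67.0 CPM (log2 1.37, adjusted p = 0.00794). In both genes every day 3 library exceeded every day 1 library. Cxcl9 (log2 1.76), the GTPases Gbp2 (0.86), Gbp3 (0.87), Igtp (0.70) and Irgm1 (0.56) and the sensor Dhx58 (0.68) were the other 6 that rose. Isg15 (0.37, adjusted p = 0.49), Ifit1 (0.42, adjusted p = 0.493), Irf7 (0.96, adjusted p = 0.0947), Iigp1 (0.66, adjusted p = 0.0667), Rtp4 (0.53, adjusted p = 0.219) and Cxcl10 (-0.20, adjusted p = 0.753) did not pass. The WT count moved with single libraries, to 2 without day 3 replicate 2 or day 1 replicate 3, to 3 without day 1 replicate 4 and to 17 without day 1 replicate 2.

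In floxed muscle the rise reached all roles, with all 6 GTPases, 5 of 6 sensors, 11 of 14 antiviral effectors and both ubiquitin-like genes called. Irf7 had 69.2, 42.1, 29.0 and 56.7 CPM on day 1 and 59.2, 283 and 186 CPM on day 3 (log2 1.84, adjusted p = 0.00151). Ifit1 had 38.4, 30.6, 16.1 and 45.6 CPM and 53.2, 154 and 80.0 CPM (log2 1.56, adjusted p = 0.00471). Dhx58 had 23.3, 13.4, 11.1 and 23.7 CPM and 40.8, 45.8 and 57.5 CPM (log2 1.43, adjusted p = 2.65e-05). Replicate 1 of day 3 stood far below the other day 3 libraries for Irf7 and Ifit1, and within the day 1 range for Irf7, but not for Dhx58. Irgm1 (log2 1.29), Ifi44 (2.14), Ifit2 (2.24), Iigp1 (1.38), Gbp3 (1.48), Ifit3 (2.28) and Ifit3b (1.86) were the others with the smallest p-values. Isg15 (1.19, adjusted p = 0.0109) and Rtp4 (1.44, adjusted p = 0.000802) also rose, while Cxcl10 (0.81, adjusted p = 0.103) did not pass. Replicate 1 was also the shallowest TA library, at 4051973 counts, and its members summed to 1289 CPM against 3101 and 2292 CPM in replicates 2 and 3.

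The fall by day 7 had its smallest p-values in Trim30a, Oas1a and Dhx58. Trim30a, a TRIM-family regulator of innate signalling, had 63.3, 72.0 and 65.7 CPM on day 3 and 16.7, 15.7 and 17.3 CPM on day 7 in WT (log2 -2.02, adjusted p = 5.87e-09). In floxed muscle Trim30a had 61.8, 72.4 and 61.9 CPM and then 19.2, 19.7 and 15.9 CPM (log2 -1.84, adjusted p = 5.07e-09). The 2 genotypes had almost the same Trim30a ranges on both days. Oas1a had 33.0, 45.4 and 31.0 CPM and then 3.91, 6.91 and 6.91 CPM in WT (log2 -2.62, adjusted p = 3.21e-07), and fell by 2.46 on the log2 scale in floxed muscle, although 57.6% of its 50-base words are shared with Oas1g. Dhx58 fell by 2.12 and 1.64 on the log2 scale in WT and floxed muscle. All 6 sensors and 13 of 14 antiviral effectors fell in each genotype.

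Members given in every cohort fell as well, but the fall of Iigp1 did not pass. In WT Isg15 had 18.8, 29.2 and 19.1 CPM on day 3 and 3.91, 8.44 and 10.7 CPM on day 7 (log2 -1.53, adjusted p = 0.00454). Irf7 had 134, 193 and 131 CPM and then 28.4, 47.4 and 54.0 CPM (log2 -1.82, adjusted p = 0.00384). Ifit1 (log2 -1.49 in WT and -2.07 in floxed muscle), Rtp4 (-1.29 and -2.02) and Cxcl10 (-2.20 and -2.10) passed in both genotypes. Of the GTPases 1 of 6 was lower in WT and 3 of 6 in floxed muscle on day 7. Iigp1 had 21.6, 32.7 and 29.9 CPM on day 3 and 14.5, 26.1 and 29.5 CPM on day 7 in WT (log2 -0.26, adjusted p = 0.487), and its floxed value was -0.38 (adjusted p = 0.265). Igtp had log2 changes of -0.13 and -0.54, Gbp3 of 0.02 and -0.38 and Cxcl9 of 0.09 and 0.26, none of which passed. The difference between GTPases and other members was not itself tested.

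The immune cell markers of the tissue followed the same days. The 8 monocyte and macrophage markers summed to 2744 to 4210 CPM on day 1, 6203 to 7955 CPM on day 3 and 812 to 1409 CPM on day 7 in WT, and to 2505 to 3531, 7571 to 8078 and 920 to 1487 CPM in floxed muscle. All 8 were lower on day 7 than on day 3 in both genotypes, and 4 (WT) and 5 (floxed) were higher on day 3 than on day 1. Ptprc, the pan-leukocyte gene CD45, stood at 106 to 125, 195 to 254 and 30.3 to 49.0 CPM on the 3 days in WT. The T and NK cell markers did not follow it, with sums of 10.7 to 18.0 CPM on day 3 and 13.1 to 16.1 CPM on day 7 in WT. The part of immune cell number in the members' time course was not tested.

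**Figure D3:**
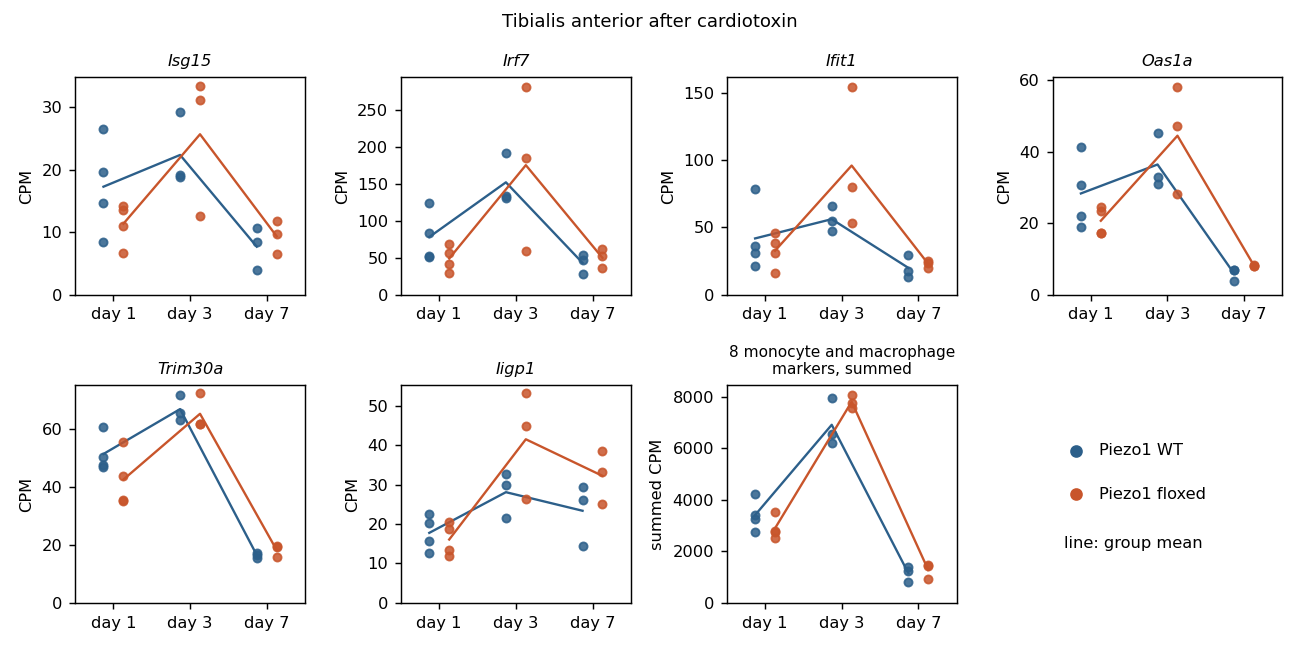
CPM of Isg15, Irf7, Ifit1, Oas1a, Trim30a and Iigp1 and the summed CPM of the 8 monocyte and macrophage markers in each TA library on days 1, 3 and 7 after CTX. Points are libraries (blue WT, orange floxed) and lines are group means. In all panels the group means are lower on day 7 than on day 3, but the fall of Iigp1 was not called. Floxed day 3 libraries are the most spread in Irf7 and Ifit1.

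Between genotypes on the same day no member passed in TA muscle. On day 1 edgeR and DESeq2 called 0 of 36, with 4 at an unadjusted p under 0.05, all lower in floxed muscle. Among all genes 0.0774% were called and 5.76% had such an unadjusted p. The median of the members was -0.41 and 35 of 36 were negative, against 50.1% of all genes. Dhx58 had 32.0, 34.1, 28.3 and 24.6 CPM in WT and 23.3, 13.4, 11.1 and 23.7 CPM in floxed muscle (log2 -0.74, adjusted p = 0.493), without overlap. Cxcl10 had 11.7, 28.0, 8.00 and 15.3 CPM and 13, 5.32, 6 and 9.70 CPM (log2 -0.89, adjusted p = 0.771), with overlap. Oas2 (log2 -0.67, adjusted p = 0.659), Oasl1 (-0.81, adjusted p = 0.77), Isg15 (-0.61, adjusted p = 0.902) and Irf7 (-0.67, adjusted p = 0.91) had the same sign.

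On day 3 the sign was the opposite, with 31 of 36 members positive and a median of 0.23, while 48.7% of all genes were positive. Both tools called 0 of 36, with 2 at an unadjusted p under 0.05, both higher. Of the 15499 genes tested 2.61% were called higher and 987 genes lower, and 23.1% had such an unadjusted p. Ifit3b (log2 0.81, adjusted p = 0.202), Iigp1 (0.57, adjusted p = 0.217) and Xaf1 (0.53, adjusted p = 0.259) had the smallest p-values. Ifit1 had 55.1, 65.9 and 47.3 CPM in WT and 53.2, 154 and 80.0 CPM in floxed muscle (log2 0.78, adjusted p = 0.304), with replicate 1 of the floxed group inside the WT range. The median was 0.51 without that replicate and 0.03 without floxed replicate 2. Muscle fibre markers differed on that day, at 30191 to 51101 CPM in WT and 3777 to 13862 CPM in floxed muscle with 4 of 4 lower, and their part in the members' values was not tested.

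On day 7 both tools called 0 of 36 and none was at an unadjusted p under 0.05. There 0% of all genes were called and 4.76% had such an unadjusted p. The median was 0.15, with Dhx58 at 0.49, Iigp1 at 0.46 and Ifi27l2a at 0.51 on the log2 scale. A joint test of whether genotypes changed differently over the 3 days called 0 of 36 by edgeR and 1 by DESeq2. At an unadjusted p under 0.05 it had 1 member. Among all genes 3.89% were called and 17.8% had such an unadjusted p. Dhx58 had the smallest p (log2 0.75 for the added day 3 change in floxed muscle, adjusted p = 0.0966), before Oas1a (0.75, adjusted p = 0.282) and Irgm1 (0.73, adjusted p = 0.319). More members rose in floxed than in WT muscle, but by edgeR the difference between the genotypes passed for no member.

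The wider pathway moved with the members over the days. In WT muscle 23 of 73 genes tested rose and 4 fell from day 1 to day 3, and 2 rose and 44 fell by day 7. In floxed muscle 40 rose and 3 fell, then 3 rose and 48 fell. The endosomal RNA sensor Tlr7 had log2 changes of 1.91 in WT and 2.42 in floxed muscle from day 1 to day 3, Lgals3bp of 1.48 and 1.89 and B2m of 1.18 and 1.39. The interferon receptor chain Ifnar2 fell by 1.44 and 1.21 on the log2 scale by day 7, and Il10rb by 1.54 and 1.88. By genotype on day 3, Il10rb (log2 0.51) and the kinase Tbk1 (0.53) were higher in floxed muscle.

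Uninjured quadriceps held little of the members, with 27 of 36 past the filter on low counts and sums of 224 to 257 CPM. Both tools called 0 of 27 by genotype and none was at an unadjusted p under 0.05. Among all genes 0% were called and 6.50% had such an unadjusted p. The median was 0.02. Ifit3b had 2.16, 3.39 and 3.28 CPM in WT and 6.32, 2.54 and 4.09 CPM in floxed muscle (log2 0.55, adjusted p = 0.809), Stat2 8.64, 10.3 and 9.68 CPM and 8.99, 5.97 and 8.03 CPM (log2 -0.32, adjusted p = 0.82), and Parp14 8.93, 4.43 and 6.12 CPM and 9.27, 8.35 and 7.44 CPM (log2 0.37, adjusted p = 0.82). The genotypes overlapped in all 3. Iigp1 had a log2 fold change of -0.23, Ifit1 of -0.24, Irf7 of -0.09 and Rtp4 of 0.35, and Isg15 and Cxcl10 did not pass the filter.

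In hearts 1 library carried most of what stood out. Replicate 3 of the floxed group on day 3 after CTX had members that summed to 2855 CPM, against 652 and 761 CPM in the other 2 libraries of its group and 559 to 926 CPM in the other 3 groups. The GTPases Iigp1, Igtp and Irgm1 were far above its group. Iigp1 stood at 805 CPM in replicate 3 and at 25.0 and 61.3 CPM in replicates 1 and 2. Igtp stood at 591 CPM against 44.3 and 33.1 CPM, and Irgm1 at 224 CPM against 49.1 and 34.6 CPM. Across the other 9 hearts Iigp1 ranged from 39.0 to 66.5 CPM and Igtp from 17.1 to 38.4 CPM.

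Gbp2 and members of other roles stood closer to the group in that library. Gbp2 stood at 102 CPM against 35.0 and 34.7 CPM, Ifit1 at 42.8 CPM against 14.9 and 14.3 CPM, and Irf7 at 54.5 CPM against 24.6 and 21.4 CPM. Isg15 stood at 6.59 CPM against 5.05 and 3.48 CPM, Oas2 at 17.5 CPM against 12.2 and 16.5 CPM and Oasl2 at 30.3 CPM against 31.0 and 33.8 CPM. The oligoadenylate synthetase genes thus stayed within or near the group's range while Iigp1 and Igtp exceeded every other heart. Ptprc was 20.5 CPM in that library against 5.17 and 9.72 CPM, macrophage markers summed to 600 CPM against 481 and 386 CPM and T and NK cell markers to 6.18 CPM against 3.32 and 4.45 CPM. Their part in the excess was not tested.

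**Figure D4:**
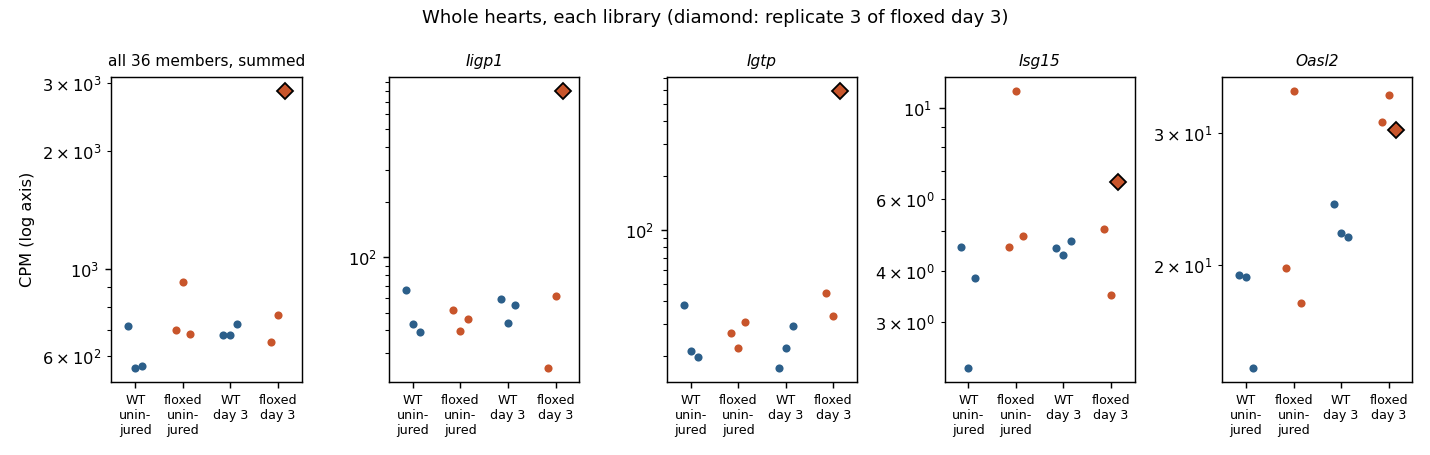
Summed CPM of the 36 members and CPM of Iigp1, Igtp, Isg15 and Oasl2 in each heart library, on log axes, by genotype and day (3 libraries per group). The diamond is replicate 3 of the floxed day 3 group, which is far above all other hearts in the sum, Iigp1 and Igtp and among them in Oasl2.

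No member was called by edgeR in any heart comparison. For floxed against WT on day 3 0 of 36 were called by edgeR and 1 by DESeq2, with 13 at an unadjusted p under 0.05, all higher. Among all genes 1.58% were called higher and 2.33% lower, and 21.6% had such an unadjusted p. Igtp had a log2 fold change of 3.29 with an SE of 1.05 (adjusted p = 0.118), Iigp1 2.49 with an SE of 1.09 (adjusted p = 0.232), Irf9 0.61 (adjusted p = 0.102) and Gbp2 0.89 (adjusted p = 0.132). The median of the members was 0.60, and 0.03 without replicate 3. Without replicate 1, whose Y-linked reads summed to 55.5 CPM against 136 to 160 CPM in the other hearts, 6 members were called higher, and without replicate 2, 3 were. Of 74 wider pathway genes, Lgals3bp was higher (log2 0.74) and Slfn5 lower (log2 -0.70).

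In floxed hearts on day 3 against uninjured floxed hearts edgeR called 0 of 36 and DESeq2 2, with 9 at an unadjusted p under 0.05. There 2.05% of all genes were called higher and 2.7% lower, and 22.2% had such an unadjusted p. Irf9 had 30.5, 39.6 and 35.8 CPM in uninjured floxed hearts and 39.1, 46.7 and 79.1 CPM on day 3 (log2 0.64, adjusted p = 0.0883). Oas2 had a log2 fold change of -0.68 (adjusted p = 0.114) and Igtp of 3.07 (adjusted p = 0.132). The median was 0.36 with all libraries and -0.20 without replicate 3, when 1 member was called lower. The sign of the members' median thus turned on that library.

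In WT hearts day 3 against uninjured gave 0 of 36 by both tools and 3 at an unadjusted p under 0.05, all higher. Among all genes 0.103% were called and 5.37% had such an unadjusted p. Ifi27l2a had 39.0, 42.8 and 41.1 CPM uninjured and 52.4, 71.2 and 64.4 CPM on day 3 (log2 0.61, adjusted p = 0.72), and Rtp4 11.6, 11.5 and 13.6 CPM and 17.3, 14.8 and 20.8 CPM (log2 0.53, adjusted p = 0.928). Both separated the groups without passing. Cmpk2 had a log2 fold change of 0.46 (adjusted p = 0.824). The interaction of genotype and day called 0 of 36 by both tools with 3 at an unadjusted p under 0.05. There 0% of all genes were called and 11.3% had such an unadjusted p. Cmpk2 (log2 -0.69, adjusted p = 0.357), Oas2 (-0.75, adjusted p = 0.426) and Igtp (3.28, adjusted p = 0.433) had the smallest p-values of the members.

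Uninjured hearts leaned higher in the floxed group, with 33 of 36 members positive and a median of 0.42, while 49.9% of all genes were positive. Summed, the members had 717, 559 and 565 CPM in WT and 699, 926 and 684 CPM in floxed hearts, which overlapped. EdgeR called 0 of 36 and DESeq2 1, with 6 at an unadjusted p under 0.05, all higher. Among all genes 0% were called and 4.22% had such an unadjusted p. Cmpk2 had 20.5, 15.7 and 13.7 CPM in WT and 25.3, 34.2 and 29.1 CPM in floxed hearts (log2 0.83, adjusted p = 0.918). Ifi44 had 7.34, 5.10 and 4.09 CPM and 8.54, 16.8 and 9.59 CPM (log2 1.08), and Ifi27l2a 39.0, 42.8 and 41.1 CPM and 52.6, 84.7 and 49.4 CPM (log2 0.60). Replicate 3 of the floxed group was the highest in each of these 3. They were among 9 members in which the genotypes did not overlap, a count for which the share of all genes was not taken. Isg15 (log2 0.93), Ifit1 (0.46), Irf7 (0.56) and Rtp4 (0.58) were positive and Iigp1 (-0.11) was not, all at adjusted p = 1.

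Uninjured liver, with 4 libraries per genotype, gave no called member. Both tools called 0 of 36, with 6 at an unadjusted p under 0.05, all higher in floxed liver. There 0% of all genes were called and 3.61% had such an unadjusted p. The median of the members was 0.39 and 34 of 36 were positive, against 51.1% of all genes. Zbp1 had 6.66, 7.27, 4.03 and 7.05 CPM in WT and 9.27, 10.3, 10.9 and 9.45 CPM in floxed liver (log2 0.67), and Trim30a 6.20, 4.79, 4.24 and 5.00 CPM and 7.96, 7.58, 9.08 and 6.58 CPM (log2 0.63). The genotypes did not overlap in these 2 members. Oas2 had 3.02, 1.24, 2.7 and 4.68 CPM and 2.88, 6.21, 12.3 and 6.01 CPM (log2 1.24), with overlap. Irf7 had 35.1, 38.3, 38.4 and 37.3 CPM and 35.0, 41.5, 82.6 and 43.7 CPM (log2 0.44), so that 1 floxed library stood well above the rest. Isg15 (log2 0.52), Ifit1 (0.53), Rtp4 (0.48), Cxcl10 (0.23) and Iigp1 (0.11) were positive, all at adjusted p = 0.999. Macrophage markers summed to 211 to 274 CPM in WT and 191 to 356 CPM in floxed liver.

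**Figure D5:**
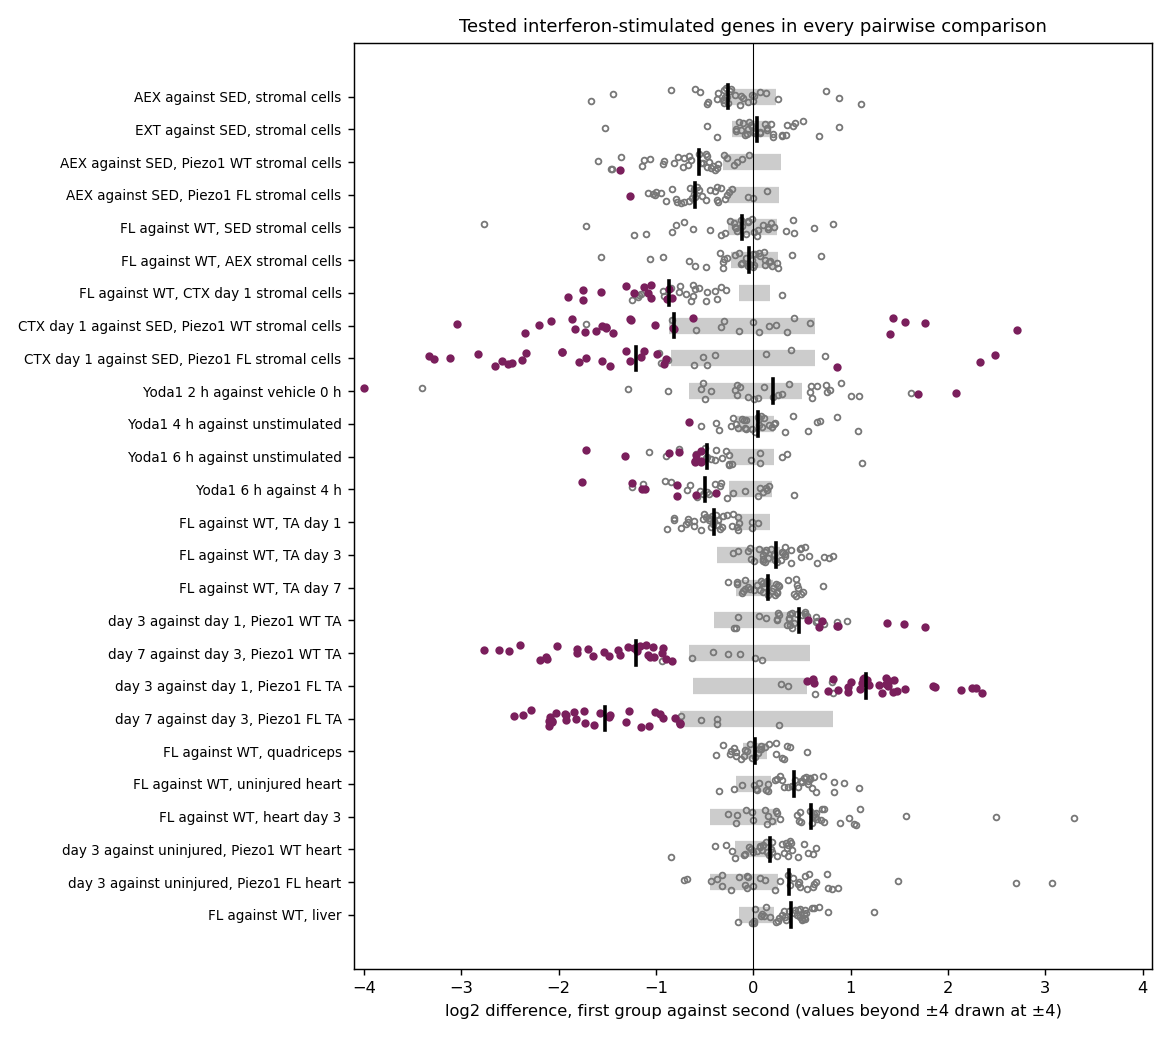
Log2 fold change of each tested member in the 26 pairwise comparisons. Filled purple points are members called at an adjusted p under 0.05 and open points are not, the black bar is the members' median and the grey band holds the middle quartiles of all genes tested; values beyond 4 in either direction are drawn at 4. Most called members lie low in floxed against WT cells after CTX, in CTX against SED, at 6 h of Yoda1 and on TA day 7, and high on TA day 3.

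Across cohorts the genotype difference of the same members did not keep 1 sign. Isg15 had a log2 fold change of floxed against WT of -1.56 in stromal cells after CTX, -0.61 in TA on day 1, 0.21 in TA on day 3, 0.93 in uninjured heart and 0.52 in liver, and only the first was called. For Irf7 the values were -1.23, -0.67, 0.21, 0.56 and 0.44 in the same order. Iigp1 had -1.09 after CTX and 0.63 in sedentary stromal cells, and Rtp4 had -1.12 after CTX and -0.43 in TA on day 1. These are values from separate fits, and differences between cohorts were not tested. Of the members tested after CTX, 3 of the 7 called with a promoter in the table had an ISRE core, against 14 of 19 not called. At 6 h of Yoda1 5 of 6 called members with a promoter had one, against 9 of 16 not called.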

How the data were processed

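Counts per gene were deposited by the authors as whole-number tables. STAR 2.7.3a, featureCounts and the mm10 build are named in the submitters' processing notes. Annotation, strand setting and treatment of multiply mapped reads: not given in the sources used here. Hence genes sharing sequence (Ifit3 with Ifit3b, Oas1a with Oas1g) and overlapping genes are uncertain. Per the labels' protocols, libraries followed the Immunological Genome Project low-input method. Of the columns, 78 matched a sample and 12 a group.

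Counts of 90 libraries were tested in 11 fits with edgeR 4.0.16 in R 4.3.3 (TMM scaling, filterByExpr with a minimum count of 10, robust quasi-likelihood F test, Benjamini-Hochberg adjustment over all genes tested, threshold 0.05) in 29 comparisons. Most fits held 1 cohort. That of CTX against SED joined the CTX groups with the sedentary genotype groups, so its libraries also enter other fits. The heart fit joined the uninjured and day 3 cohorts. The standard error is the log2 fold change divided by the root of F. CPM use TMM-scaled totals of each fit and are not comparable between fits. Any pair of replicates differed by a chi-square of at least 2.75 per gene, above sampling noise. The code was tested on simulated data with 200 changed genes.

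The members and gene lists were chosen with earlier results of these data known. Isg15, Ifit1, Irf7, Iigp1, Rtp4 and Cxcl10 were given in every cohort; each comparison also names up to 8 called members with the smallest p, or, with fewer than 3 called, the 3 smallest p, and up to 4 wider pathway genes. Further names fill out counts or show a contrast and were chosen after their values were seen. Alternatives were DESeq2 1.42.0, its size factors in edgeR, no filter on low counts, the replicate number as a block, and each library left out. Dropping the 4 libraries with 2 group names, fitting only the groups compared, and dropping the 2 libraries with Y-linked reads were chosen after seeing the data. Replicate numbers are not stated to mark shared animals or days. Depth limits low genes: 1 count is a large step in CPM in the shallowest libraries.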

Additional observations from a re-analysis of the deposited data

How the results depend on the processing

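No named member that was called changed sign under any alternative run. In floxed hearts over time the called members were 1 lower without replicate 3 of day 3 and 2 higher without replicate 1. Where counts moved, the cause was not tested. The share of all genes called under DESeq2 or another alternative is not given here. Counts of members under those settings are therefore not set against all genes. Without the filter on low counts, which widens the genes tested, called members numbered 3 for AEX in the first cohort, 9 for AEX in WT and 3 in floxed stromal cells, 1 for genotype in sedentary cells, 26 for genotype after CTX, 1 each for genotype in TA on days 1 and 3, 2 for the joint TA test, 3 for genotype in uninjured hearts, 13 for genotype in day 3 hearts, 1 for WT and 9 for floxed hearts over time and 4 for the heart interaction. DESeq2 called 1, 7, 2, 1 and 21 in the first 5 of those comparisons, 1 in the joint TA test, 1 in uninjured and 1 in day 3 hearts by genotype and 2 in floxed hearts over time; all 13 members called after CTX were among its 21. DESeq2's size factors within edgeR moved no count by more than 1.5 times.

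Replicate numbers did not pair the libraries: in no comparison did all same-numbered libraries deviate together at r over 0.1. With the replicate number as a block 1 member was called for AEX, 3 for genotype in day 3 hearts and 3 in floxed hearts over time, against 0 without it, and 12 after CTX, of which 11 were among the 13. No blocked fit was made for the genotype and exercise cohort or for CTX against SED, whose replicates are lettered by column.

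Without the 4 libraries with 2 group names, 3 members were called for AEX in WT cells and 1 for genotype in sedentary cells. Fitting only the groups compared gave 2 for AEX in WT cells, 0 for AEX in floxed cells and 1 in WT hearts over time. Without the 2 libraries with Y-linked reads 1 was called for AEX. With each library left out in turn, counts ran from 0 to 3 for AEX (3 without AEX replicate 1), 0 to 6 for AEX in WT and 0 to 1 in floxed cells, 0 to 1 for genotype in sedentary cells, 10 to 15 after CTX, 2 to 8 at 2 h, 0 to 1 at 4 h, 5 to 9 at 6 h, 3 to 6 between 4 and 6 h, 2 to 17 for the WT rise to TA day 3, 0 to 1 for the joint TA test, 0 to 6 for genotype in day 3 hearts and 0 to 2 in floxed hearts over time. Of the calls of named members, 63 of 479 were lost in a leave-one-out fit, 3 of 60 with the replicate block, 3 of 67 with only the groups compared, and none under DESeq2's size factors or no filter. DESeq2 lost none of the 74 for which it gave an adjusted p.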
